A study of Mus musculus with 6 samples.

Results

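The CC chemokines are small secreted proteins, named for a pair of adjacent cysteines, that draw leukocytes along a concentration gradient by binding G protein-coupled receptors of the CCR family. Macrophages are a major source of them: bacterial endotoxin (LPS), sensed through TLR4, switches on many CC chemokine genes through NF-kB and interferon regulatory factors, while others are made without a stimulus. The 10 genes described here were taken by symbol (Ccl2, Ccl3, Ccl4, Ccl5, Ccl6, Ccl7, Ccl9, Ccl17, Ccl22 and Ccl24) from the 24454 gene symbols of a table of RNA-seq read counts. Each of the 10 has 1 transcript row in that table, and all 10 passed the filter on low counts that left 9389 genes to test. Ccl17 passed it only through the libraries treated with LPS.

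The counts come from polyA-enriched RNA of macrophages washed from the abdominal cavity and cultured, taken from male wild-type C57BL6/J mice 6 to 8 weeks old. There were 3 groups of 2 libraries: SGA360+LPS (10 µM SGA360 for 1 h, then 10 ng/ml LPS for 4 h), LPS (10 ng/ml for 4 h) and vehicle (5 h). SGA360 binds the AHR (aryl hydrocarbon receptor), a transcription factor activated by small molecules, and the comparison with LPS alone asks what this ligand did under endotoxin; the labels give no solvent pretreatment for the LPS group and do not name the vehicle. Nor is it stated that the pair of libraries in each group came from different mice or cultures, so the spread behind each p-value is that of these libraries and may be technical.

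Total counts were 7726973 to 9529817 per library. Vehicle replicate 1 differed from the rest, with a count for 10001 symbols where the other 5 had 12282 to 12643. Rn45s, a ribosomal RNA gene, made up 4.92% of its reads and 0.22% to 0.684% of theirs. Of 9 macrophage markers, 8 were tested, and the summed level of the list was 21756 to 25100.5 CPM (counts per 1e6 of the scaled library size) with SGA360+LPS, 22562 to 26227 CPM with LPS and 21403 to 23389 CPM in vehicle; Itgam, which macrophages express, was listed at 0 in every library; it has 2 transcript rows, and a listed 0 of such a gene does not show that its transcript was absent. Markers of other cells were present too. Fibroblast markers (6, none at 0 in all libraries) summed to 4737 to 5208 CPM with SGA360+LPS, 4418 to 4725 CPM with LPS and 4680 to 5379 CPM in vehicle, and mesothelial markers (7, none at 0 in all libraries) to 301 to 321 CPM, 309 to 314 CPM and 436 to 471 CPM in the same groups. Of 5 mast cell markers 2 were at 0 in all libraries, and the sums were 54.7 to 61.6 CPM with SGA360+LPS, 61.2 to 63.3 CPM with LPS and 51.9 to 59.0 CPM in vehicle. Markers of resident large peritoneal macrophages (6, none at 0 in all libraries) summed to 140 to 147 CPM with SGA360+LPS, 126 to 140 CPM with LPS and 170 to 171 CPM in vehicle, and those of small peritoneal macrophages and monocytes (6, 1 at 0 in all) to 13.4 to 14.6, 15.4 to 16.2 and 19.7 to 20.1 CPM in the same groups. Of 6 B cell markers 5 were among the symbols counted, and 4 of these were above 0 in some library. They summed to at most 33.3 CPM in any library. Neutrophil (4 of 6 above 0), T and NK cell (5 of 7) and eosinophil (3 of 5) markers summed to at most 16.2, 7.93 and 3.05 CPM. Clec10a, Kit, Ms4a2, Cd79b, S100a9, Cd8a, Klrb1c and Siglecf, all at 0, have several transcript rows, as Itgam has. Their zeros do not show absence, so the sums for these cells may be too low. Which cells made each chemokine transcript cannot be read from bulk RNA, and a change in the number of cells of a type cannot be told apart from a change in RNA per cell.

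In the mm10 build, 7 of the 10 genes lie on chromosome 11 in a pair of groups. Ccl2 (NM_011333, 82035577 to 82037452) and Ccl7 (NM_013654, 82045712 to 82047523), both on the plus strand, are 8.26 kb apart. Farther along the chromosome come Ccl5 (NM_013653, 83525779 to 83530518, minus strand), Ccl9 (NM_011338, 83572917 to 83578636, minus strand), Ccl6 (NM_009139, 83587886 to 83593087, minus strand), Ccl3 (NM_011337, 83647843 to 83649378, minus strand) and Ccl4 (NM_013652, 83662584 to 83664683, plus strand). Ccl9 and Ccl6 are separated by 9.25 kb, and Ccl3 and Ccl4 by 13.2 kb. Ccl22 (NM_009137, 94745684 to 94751388) and Ccl17 (NM_011332, 94810453 to 94812036) lie on the plus strand of chromosome 8, and Ccl24 (NM_019577, 135569937 to 135573043) on the minus strand of chromosome 5. All are annotated as protein-coding, and the counts are of reads assigned to these transcripts. The annotation has Gm17268 across Ccl2 on the opposite strand, and E230016K23Rik across Ccl6 on the opposite strand; the second was listed at 0 in every library, and with no strand setting stated, a read in such an overlap cannot be assigned to either strand. Over all 45 pairs of the 10 transcripts the longest identical stretch was 25 bases (Ccl6 and Ccl9), followed by 23 bases (Ccl2 and Ccl7).

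RefSeq promoter windows (GRCm38.p6, 250 bases before to 50 after the start site) were at hand for 5 of the 10 genes, namely Ccl3, Ccl6, Ccl9, Ccl17 and Ccl22. The 250 bases before the start are printed 5′ to 3′ for the neighbours Ccl9 (chr11:83578637-83578886, minus strand) and Ccl6 (chr11:83593088-83593337, minus strand), which moved in opposite directions with LPS. They are also shown for Ccl3 (chr11:83649379-83649628, minus strand), the gene with the largest difference under SGA360, and for Ccl17 (chr8:94810203-94810452, plus strand), whose window holds the core of the AHR-binding element. Capitals mark matches to the motifs searched.
Ccl9: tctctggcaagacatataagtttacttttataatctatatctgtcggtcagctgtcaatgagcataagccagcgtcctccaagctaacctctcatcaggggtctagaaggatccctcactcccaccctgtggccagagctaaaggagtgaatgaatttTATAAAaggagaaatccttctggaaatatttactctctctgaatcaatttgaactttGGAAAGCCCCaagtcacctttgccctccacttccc
Ccl6: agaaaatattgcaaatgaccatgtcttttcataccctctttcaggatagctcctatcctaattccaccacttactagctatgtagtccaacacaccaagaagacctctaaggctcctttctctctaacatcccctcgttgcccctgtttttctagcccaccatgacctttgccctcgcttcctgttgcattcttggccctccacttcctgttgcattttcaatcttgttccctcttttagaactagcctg
Ccl3: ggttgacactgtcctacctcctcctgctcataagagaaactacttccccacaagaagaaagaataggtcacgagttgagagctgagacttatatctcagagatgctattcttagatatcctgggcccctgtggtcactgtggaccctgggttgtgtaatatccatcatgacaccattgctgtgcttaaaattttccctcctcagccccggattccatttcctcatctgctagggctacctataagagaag
Ccl17: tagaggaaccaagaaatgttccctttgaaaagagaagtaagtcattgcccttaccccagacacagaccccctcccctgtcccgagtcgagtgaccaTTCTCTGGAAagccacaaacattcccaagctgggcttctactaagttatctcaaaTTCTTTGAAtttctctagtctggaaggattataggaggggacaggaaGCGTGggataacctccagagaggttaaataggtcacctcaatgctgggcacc

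The 7 motifs were the NF-kB consensus, the AHR-binding core GCGTG, the AP-1 site TGACTCA, the core of the interferon-stimulated response element, the gamma-activated STAT element, the STAT6 element with its spacer longer by 1 base, and TATAAA. Each was searched on both strands, except TATAAA, which was searched on the gene's own strand. In the 300-base windows of 32851 promoters these were found in 8.46%, 32.4%, 5.2%, 3.44%, 8.3%, 6.95% and 8.32%, in that order. Ccl9 had an NF-kB match beginning 35 bases before its start, GGAAAGCCCC on the gene's strand, and a TATAAA beginning 92 bases before it. Ccl17 had a GCGTG 52 bases before its start and matches to the gamma-activated element (TTCTTTGAA) at 99 and the STAT6 element (TTCTCTGGAA) at 154 bases before it, and Ccl22 a GCGTG 41 bases after its start. The windows of Ccl3 and Ccl6 held no match to any of the 7, and no match overlapped another. A match describes the letters of this window and no more.

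In vehicle libraries the family was dominated by Ccl6, and with LPS it was not. Per kilobase of exon, which allows levels of different genes to be compared, Ccl6 stood at 1097 and 938 CPM per kb in the vehicle libraries and made up 76.2% and 76.8% of the summed level of the 10 genes. With SGA360+LPS its share was 11.4% and 12.3%, and with LPS 10.1% and 11.6%. Next in vehicle came Ccl9, Ccl2 and Ccl3 at 76.0, 71.5 and 64.3 CPM per kb, whose ranges over the libraries overlapped, then Ccl4 at 39.4, Ccl5 at 27.6 and Ccl7 at 21.7, also with overlapping neighbours. Ccl22 (6.69), Ccl24 (5.77) and Ccl17 (0.425 CPM per kb) were lowest there, the ranges of Ccl22 and Ccl24 overlapping.

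With LPS the top places went to Ccl3 and Ccl5, at 1756 ± 50.8 and 1724 ± 20.8 CPM per kb (SD, n = 2), which overlapped over the libraries. Ccl4 followed at 895 ± 19.5, Ccl6 and Ccl2 at 714 ± 62.5 and 713 ± 13.6, again overlapping, Ccl9 at 494 ± 39.7 and Ccl7 at 237 ± 5.90 CPM per kb. With SGA360+LPS Ccl5 led alone, at 1641 and 1656 CPM per kb in the libraries, with Ccl3 below it at 1191 and 1151. Ccl4, Ccl2 and Ccl6 were at 672, 648 and 645 CPM per kb with overlapping ranges, and Ccl9 at 405 and Ccl7 at 199 CPM per kb. In both LPS-treated groups Ccl22, Ccl24 and Ccl17 stayed the 3 lowest, at 37.7, 8.30 and 7.40 CPM per kb with SGA360+LPS (Ccl24 and Ccl17 overlapping) and 43.5, 10.1 and 9.05 CPM per kb with LPS. As a share of all reads, the 10 genes took 0.516% and 0.494% with SGA360+LPS, 0.618% and 0.597% with LPS, and 0.21% and 0.187% in vehicle, so the 3 groups did not overlap.

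**Figure D1:**
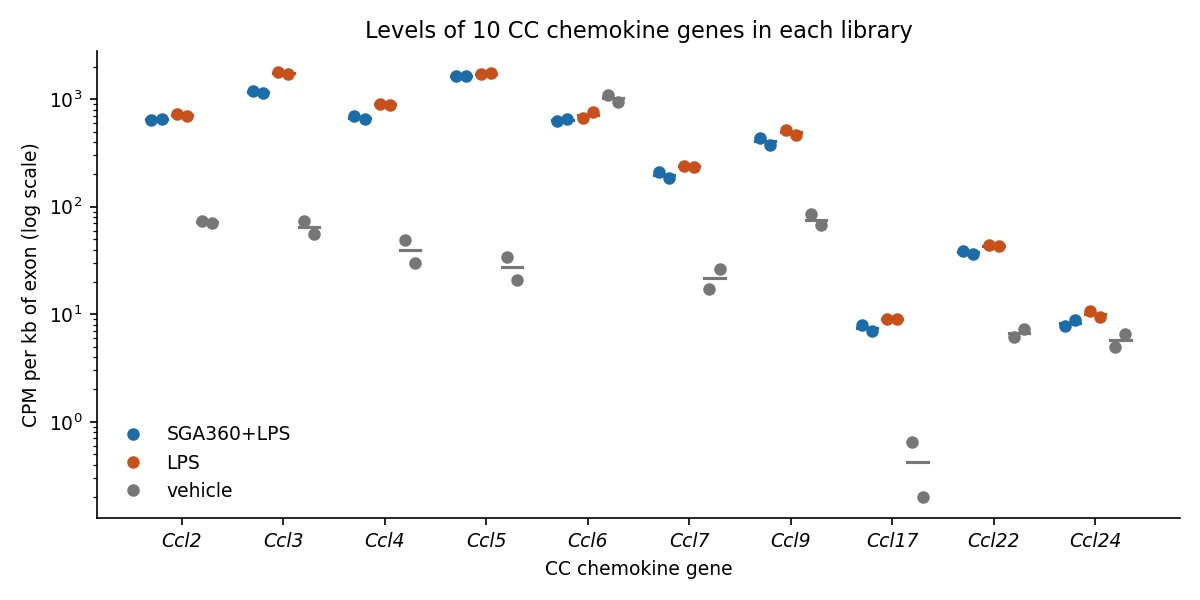
CPM per kb of exon (log scale) of the 10 CC chemokine genes in each library, with the 2 libraries of each group as points and their mean as a bar. Ccl6 is the 1 gene whose vehicle libraries lie above the LPS-treated ones, and Ccl17 is the lowest gene in vehicle, at 0.425 CPM per kb on average.

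**Figure D2:**
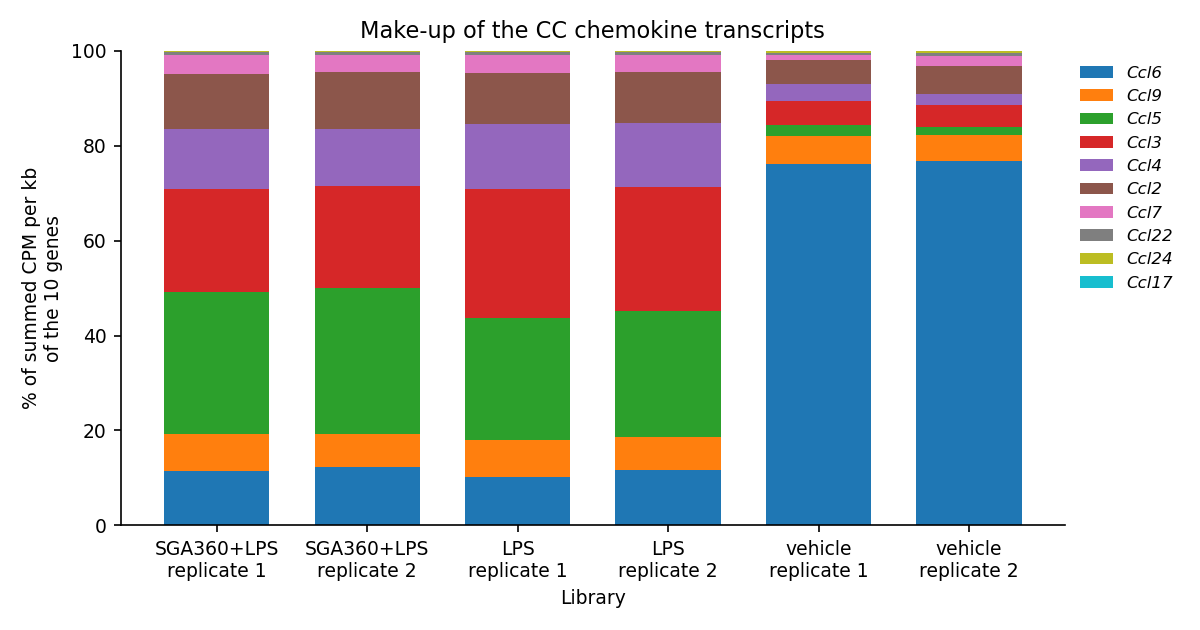
Share of each gene in the summed CPM per kb of the 10 CC chemokine genes, 1 bar per library. Ccl6 fills 76.2% and 76.8% of the vehicle bars and 10.1% to 12.3% of the LPS-treated ones.

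LPS against vehicle asks what endotoxin alone did to these genes. In edgeR's quasi-likelihood fit all 10 were called at an adjusted p under 0.05 (Benjamini-Hochberg over the 9389 genes): 9 rose and Ccl6 fell. The 9 include Ccl17, which entered the test only through the LPS-treated libraries, where it was high. Its part in this count, and in the median and separation below, is therefore description only. Over all genes tested, 19.4% rose and 17% fell in this comparison, 36.4% together. The median log2 fold change of the 10 genes was 3.38, beside −0.01 over all genes tested. For every one of the 10 both LPS libraries lay on the same side of both vehicle libraries, above in 9 cases and below in 1; over all genes 33.1% were separated upward and 32.7% downward.

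Ccl2 and Ccl7 encode ligands of CCR2, the receptor by which monocytes leave the marrow and enter inflamed tissue. Ccl2 had 523 and 526 CPM with SGA360+LPS, 584 and 569 CPM with LPS, and 59.0 and 56.6 CPM in vehicle. Ccl7 had 169 and 150 CPM with SGA360+LPS, 194 and 187 CPM with LPS, and 13.7 and 21.1 CPM in vehicle. In both genes the vehicle libraries were low and all 4 LPS-treated libraries high, with no overlap. LPS raised Ccl2 by 3.32 on the log2 scale (SE 0.07; 95% interval 3.16 to 3.47; adjusted p = 5.66e-10) and Ccl7 by 3.44 (SE 0.15; 3.09 to 3.79; adjusted p = 6.99e-08) in edgeR's quasi-likelihood fit. Fibroblasts are another known source of both chemokines. The fibroblast marker sums given above overlapped between LPS and vehicle. Of 5 such markers tested, 1 was called with LPS by edgeR, where 36.4% of all genes were. It was Col3a1, which fell by 0.41 on the log2 scale (adjusted p = 0.0011). Col1a1 (−0.04, adjusted p = 0.773) and Col1a2 (−0.12, adjusted p = 0.236) had higher levels and no call. Lum (−0.60, adjusted p = 0.0565) and Dcn (−0.53, adjusted p = 0.436) had lower levels and no call. The median of the 5 was −0.41. The sums consist mostly of the collagen genes, and Dcn has 2 transcript rows, so its counts are uncertain. The part of fibroblasts in these values was not tested.

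Ccl3 and Ccl4, the macrophage inflammatory proteins 1 alpha and 1 beta, and Ccl5 (RANTES) attract monocytes, T cells and natural killer cells; Ccl3 and Ccl5 bind CCR1. Ccl3 had 944 and 913 CPM with SGA360+LPS, 1421 and 1364 CPM with LPS, and 58.1 and 43.9 CPM in vehicle. Ccl4 had 461 and 430 CPM with SGA360+LPS, 602 and 584 CPM with LPS, and 32.6 and 19.7 CPM in vehicle. Ccl5 had 877 and 884 CPM with SGA360+LPS, 913 and 928 CPM with LPS, and 18.2 and 11.2 CPM in vehicle. None of the groups overlapped in any of the 3 genes. Ccl5 showed the largest rise of the family, 5.97 (SE 0.15; 95% interval 5.64 to 6.31; adjusted p = 1.04e-09), a 62.8-fold difference that was rank 41 by size among the genes tested. Ccl3 rose by 4.77 (SE 0.12; 4.51 to 5.03; adjusted p = 8.88e-10) and Ccl4 by 4.51 (SE 0.17; 4.14 to 4.88; adjusted p = 1.76e-08) in the same edgeR fit.

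Ccl6 and Ccl9 are rodent chemokines that bind CCR1 and are made by resting myeloid cells. Ccl6 had 905 and 952 CPM with SGA360+LPS, 965 and 1092 CPM with LPS, and 1579 and 1351 CPM in vehicle. Ccl9 had 1303 and 1137 CPM with SGA360+LPS, 1573 and 1403 CPM with LPS, and 256 and 202 CPM in vehicle. These 2 neighbours thus moved in opposite directions: Ccl6 fell by 0.51 on the log2 scale (SE 0.09; adjusted p = 0.00124) and Ccl9 rose by 2.70 (SE 0.12; adjusted p = 5.67e-08) with LPS in edgeR's quasi-likelihood fit. The ratio of Ccl6 to Ccl9 counts within a library, which needs no scaling between libraries, was 0.694 and 0.838 with SGA360+LPS, 0.613 and 0.778 with LPS, and 6.17 and 6.69 in vehicle.

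Ccl17 and Ccl22 encode the ligands of CCR4, found on Th2 and regulatory T cells, and are known from dendritic cells and alternatively activated macrophages. Ccl17 had 32 and 32 counts with SGA360+LPS, 35 and 43 counts with LPS, and 3 and 1 counts in vehicle. From pooled counts the LPS to vehicle ratio was 21.7, with an exact 95% counting interval of 8.15 to 81.7 that covers counting error only. Its vehicle counts were below the filter's minimum count of 10. Its entry into the test against vehicle thus depended on the libraries in which it was high. The fitted log2 fold change of Ccl17 was 4.35 (SE 0.62, adjusted p = 0.000362 by edgeR), with 5.32 without vehicle replicate 1 and 3.76 without vehicle replicate 2. Ccl22 had 70.7 and 65.9 CPM with SGA360+LPS, 79.1 and 78.8 CPM with LPS, and 11.2 and 13.1 CPM in vehicle, and rose with LPS by 2.70 (SE 0.12; adjusted p = 8.03e-08 by edgeR). The LPS-treated libraries of both genes lay clear of the vehicle ones. Of 7 dendritic cell markers, Clec9a and Ccr7 were listed at 0 in all libraries, but both have several transcript rows, as Itgam has, so these zeros do not show that dendritic cell transcripts were absent. The sum was 223 to 224 CPM with SGA360+LPS, 210 to 224 CPM with LPS and 142 to 145 CPM in vehicle. Nearly all of it was Itgax, an integrin gene that macrophages also express (214 ± 3.04, 208 ± 12.0 and 138 ± 4.50 CPM in those groups; SD, n = 2), which rose with LPS by 0.60 (adjusted p = 0.000143 by edgeR). Flt3 and Zbtb46 had at most 61 counts in any library, and Zbtb46 has 2 transcript rows, so its counts are uncertain. The part of dendritic cells in the Ccl17 and Ccl22 values was not tested.

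Ccl24, eotaxin-2, attracts eosinophils through CCR3 and is a product of alternatively activated macrophages. It had 10.0 and 11.4 CPM with SGA360+LPS, 13.8 and 12.1 CPM with LPS, and 6.37 and 8.53 CPM in vehicle. It showed the smallest rise of the family, 0.79 on the log2 scale (SE 0.23; 95% interval 0.28 to 1.31; adjusted p = 0.0219 by edgeR). This call was lost without LPS replicate 1 (0.72; adjusted p = 0.145), without LPS replicate 2 (0.90; adjusted p = 0.0728), in the fit on LPS and vehicle alone (adjusted p = 0.0512) and in DESeq2 (adjusted p = 0.0653); over the 13 alternatives adjusted p ran from 0.00097 to 0.145.

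**Figure D3:**
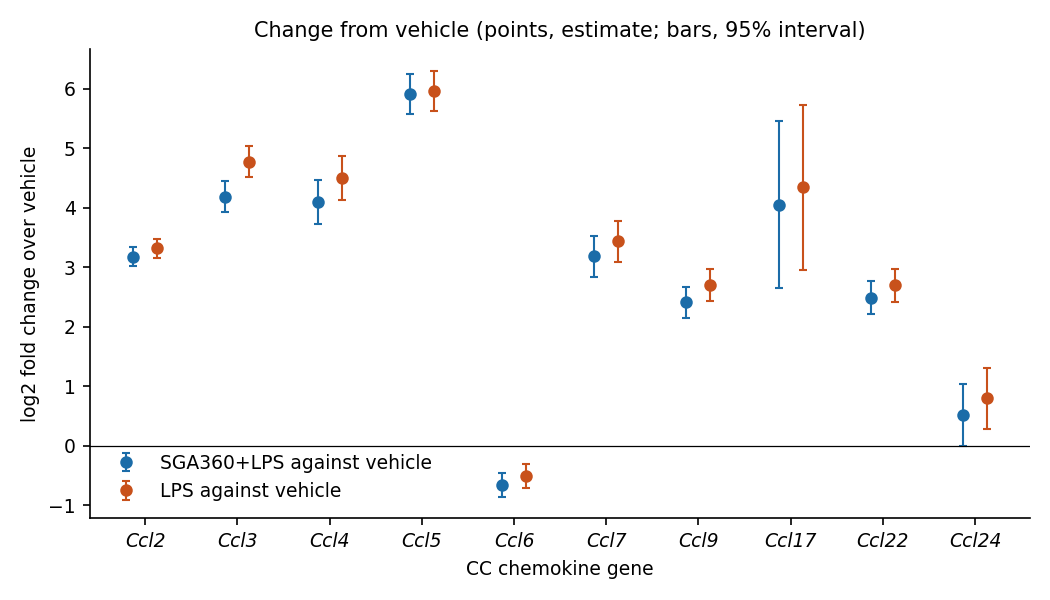
Log2 fold change over vehicle of the 10 CC chemokine genes with SGA360+LPS (blue) and with LPS (orange), as points with 95% intervals from edgeR's quasi-likelihood fit. Ccl5 lies highest at 5.91 and 5.97, and Ccl6 is the 1 gene below 0 in both comparisons, which share the vehicle libraries.

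Genes next to these chemokine genes did not all follow them. Within 50 kb of a family member the deposited positions place 13 other symbols, of which 9 were tested. By edgeR 4 rose and 1 fell with LPS, where 19.4% of all genes tested rose and 17% fell. Heatr9 is among the 4. With its few counts and large rise, Heatr9 can have entered the test only through the LPS-treated libraries, as Ccl17 did. Beside Ccl5, Heatr9 rose by 2.88 (SE 0.99; adjusted p = 0.0454) on 59 counts in all, and Taf15, which encodes an RNA-binding protein, by 0.81 (SE 0.10; adjusted p = 0.000108). Beyond Ccl4, Wfdc17 rose by 0.26 (SE 0.08; adjusted p = 0.0301), and Wfdc18 stood at 1.00 (SE 0.62; adjusted p = 0.245). Near Ccl17, Polr2c, an RNA polymerase II subunit gene, rose by 0.34 (SE 0.09; adjusted p = 0.0146), and near Ccl24, Hip1 fell by 1.98 (SE 0.09; adjusted p = 6.4e-08). Cx3cl1, the fractalkine gene between Ccl22 and Ccl17, stood at 0.86 (SE 0.58; adjusted p = 0.279).

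**Figure D4:**
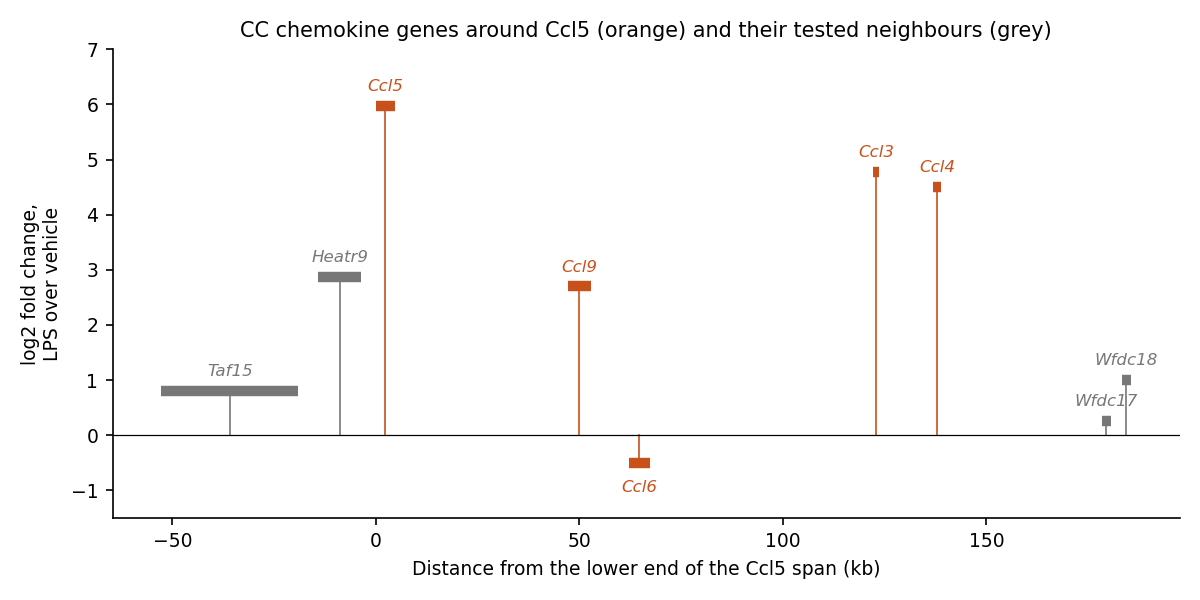
Log2 fold change (LPS over vehicle) of the CC chemokine genes around Ccl5 (orange) and their tested neighbours within 50 kb (grey), against distance in kb from the lower end of the Ccl5 span. Thick bars give each gene's extent; Ccl6, at −0.51, lies between Ccl9 at 2.70 and Ccl3 at 4.77.

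Other CC chemokine genes had few counts or none. Of 14 further ligand genes, 8 were at 0 in every library and 1 passed the filter, Ccl8, whose product also attracts monocytes and other leukocytes. Among those at 0, Ccl20, Ccl27a and Ccl27b have several transcript rows, so their zeros do not show that the transcripts were absent. Ccl8 had 17 and 13 counts with SGA360+LPS, 21 and 24 with LPS, and 69 and 24 in vehicle, and was not called with LPS (−0.91, SE 0.55; adjusted p = 0.235 by edgeR). Ccl12 had 4 and 7 counts with SGA360+LPS, 4 and 8 with LPS, and 22 and 4 in vehicle, and Ccl25 2 and 3, 3 and 4, and 18 and 2 in the same groups. In all 3 genes the high library was vehicle replicate 1, which had the fewest symbols detected and the most Rn45s. Ccl25 has 2 transcript rows, so its counts are uncertain.

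Of 14 CC chemokine receptor genes, 4 were at 0 in every library and 5 were tested. Among those at 0, Ccr7, Ccr9 and Ackr2 have 2 transcript rows each, and their zeros do not show absence either. With LPS 3 of the 5 tested fell, among them Ccr1 and Ccr2, and 1 rose (Ccrl2) by edgeR. Over all genes tested 17% fell and 19.4% rose. Ccr1, a receptor for Ccl3, Ccl5, Ccl6 and Ccl9, had 34.5 and 40.0 CPM with SGA360+LPS, 37.0 and 41.1 CPM with LPS, and 160 and 149 CPM in vehicle (LPS against vehicle −1.98, SE 0.11; adjusted p = 2.87e-07). Ccr2, the receptor for Ccl2 and Ccl7, had 12 and 10, 8 and 11, and 70 and 82 counts in those groups (−2.83, SE 0.42; adjusted p = 0.000437). Ccrl2, a receptor-like protein that binds chemerin, had 7.87 and 8.85 CPM with SGA360+LPS, 10.4 and 8.42 CPM with LPS, and 3.24 and 1.46 CPM in vehicle (LPS against vehicle adjusted p = 0.00205 by edgeR); it has 3 transcript rows, so its counts are uncertain. Ccr3 had 17 and 14 counts with SGA360+LPS, 7 and 13 with LPS and 0 and 11 in vehicle, with no call (adjusted p = 0.482).

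Of 29 regulators known to act on such genes, 20 were tested, and 11 rose and 6 fell with LPS by edgeR. Beside this, 19.4% of all genes tested rose and 17% fell. Among those with large differences, Nfkb1, an NF-kB subunit gene, rose by 2.67 (SE 0.10; adjusted p = 2.3e-08). Zc3h12a, which encodes an RNase that degrades inflammatory mRNAs, rose by 2.45 (SE 0.12; adjusted p = 1.08e-07), and Fos, an AP-1 subunit gene, fell by 1.89 (SE 0.24; adjusted p = 0.000155). The 9 that were not tested, among them Relb, Irf1 and Irf7, all have several transcript rows, and 5 of them were at 0 in every library.

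SGA360+LPS against LPS asks what the AHR ligand did under endotoxin. In both SGA360+LPS libraries every one of the 10 genes was below both LPS libraries, while 19.6% of all genes tested were separated in this way and 19.9% the other way. The differences ran from −0.58 for Ccl3 to −0.06 for Ccl5 on the log2 scale, with a median of −0.26 beside 0.00 over all genes tested. By edgeR's quasi-likelihood test over all 6 libraries none of the 10 passed an adjusted p of 0.05, where 0.0746% of all genes did, all of them lower. At an unadjusted p under 0.05 were 4 of the 10 (Ccl2, Ccl3, Ccl4 and Ccl9), beside 2.94% of all genes. DESeq2 called 1 member and limma-voom 1, Ccl3 in both, where each called 0.0959% of all genes as lower. The 10 genes share the same 4 libraries and their scaling, so their common direction is not 10 independent observations.

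Ccl3 had the largest difference of the family. Its level was 929 ± 22.1 CPM with SGA360+LPS and 1393 ± 40.3 CPM with LPS (SD, n = 2). The difference was −0.58 on the log2 scale (SE 0.10; 95% interval −0.80 to −0.37; adjusted p = 0.133 by edgeR), or −33.3%. Its neighbour Ccl4 was at 446 ± 21.9 and 593 ± 12.9 CPM in the same groups, a log2 fold change of −0.41 (SE 0.13; −0.71 to −0.12; adjusted p = 1 by edgeR). The spread between replicates, as edgeR's common coefficient of variation, was 0.0951 when the vehicle pair was included and 0.054 for SGA360+LPS and LPS alone. In a fit on these 4 libraries alone Ccl3 (−0.59, SE 0.06; adjusted p = 0.000163) and Ccl4 (−0.41, SE 0.06; adjusted p = 0.00786) were lower by edgeR, in which 0.121% of the genes were called lower and 0.011% higher, and 9.03% had an unadjusted p under 0.05, beside 7 of the 10 members (Ccl2, Ccl3, Ccl4, Ccl6, Ccl7, Ccl9 and Ccl22). Both were also called without vehicle replicate 1 (0.134% of genes lower, 0.0206% higher), without vehicle replicate 2 (0.132% lower, 0.0304% higher) and with no count filter (0.103% lower, 0.0137% higher). Neither was called when any 1 of the 4 LPS-treated libraries was left out. Over the 13 alternatives the value ran from −0.61 to −0.56 for Ccl3 and from −0.46 to −0.37 for Ccl4.

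The other members differed less. Their intervals cover only the spread of these libraries, which may be technical, and do not bound a difference across mice or cultures. Ccl5 had a log2 fold change of −0.06 (95% interval −0.31 to 0.18 over all 6 libraries, −0.19 to 0.06 in the 4-library fit), so a difference as large as that of Ccl3 lay outside both intervals. Over all 6 libraries Ccl2 stood at −0.14 (−0.27 to −0.00) and Ccl6 at −0.15 (−0.34 to 0.05), with 4-library intervals of −0.26 to −0.02 for Ccl2 and −0.29 to −0.00 for Ccl6. Ccl9 stood at −0.29 (−0.53 to −0.04), Ccl7 at −0.25 (−0.54 to 0.03) and Ccl22 at −0.21 (−0.45 to 0.03), with 4-library intervals of −0.45 to −0.13 for Ccl9, −0.41 to −0.10 for Ccl7 and −0.38 to −0.04 for Ccl22. None of these 5 passed the adjusted threshold in either fit (4-library adjusted p from 0.278 to 0.535 by edgeR). Ccl17 at −0.29 (−1.27 to 0.68) and Ccl24 at −0.27 (−0.77 to 0.23) had the widest intervals, on at most 111 counts in a library.

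Ratios of counts within a library do not depend on scaling, and those with Ccl3, the member with the largest difference, are given as a description. Ccl3 over Ccl5 was 1.08 and 1.03 with SGA360+LPS, 1.56 and 1.47 with LPS, and 3.19 and 3.91 in vehicle. Ccl3 over Ccl2 was 1.81 and 1.74 with SGA360+LPS, 2.43 and 2.40 with LPS, and 0.985 and 0.776 in vehicle. Ccl3 over its neighbour Ccl4 was 2.05 and 2.12 with SGA360+LPS against 2.36 and 2.34 with LPS, with 1.78 and 2.23 in vehicle. The groups did not overlap in these ratios between SGA360+LPS and LPS, but an exact permutation test of 2 libraries against 2 cannot go below p = 0.333, and the pairs were picked with the values of the genes known. Of the mean difference of −1116 CPM summed over the family, not divided by exon length, Ccl3 made up 41.6%, Ccl9 24.0% and Ccl4 13.2%. These shares give more weight to long transcripts, and the exons total 793 bases in Ccl3, 3012 in Ccl9 and 663 in Ccl4. Per kb, Ccl3 was at 1171 CPM with SGA360+LPS and 1756 with LPS, Ccl4 at 672 and 895, and Ccl9 at 405 and 494. On that scale Ccl4 differed more than Ccl9. Ccl3 made up 21.6% and 21.4% of the family's level per kb with SGA360+LPS, against 27.0% and 26.2% with LPS, and Ccl5 29.8% and 30.8% against 25.8% and 26.5%.

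**Figure D5:**
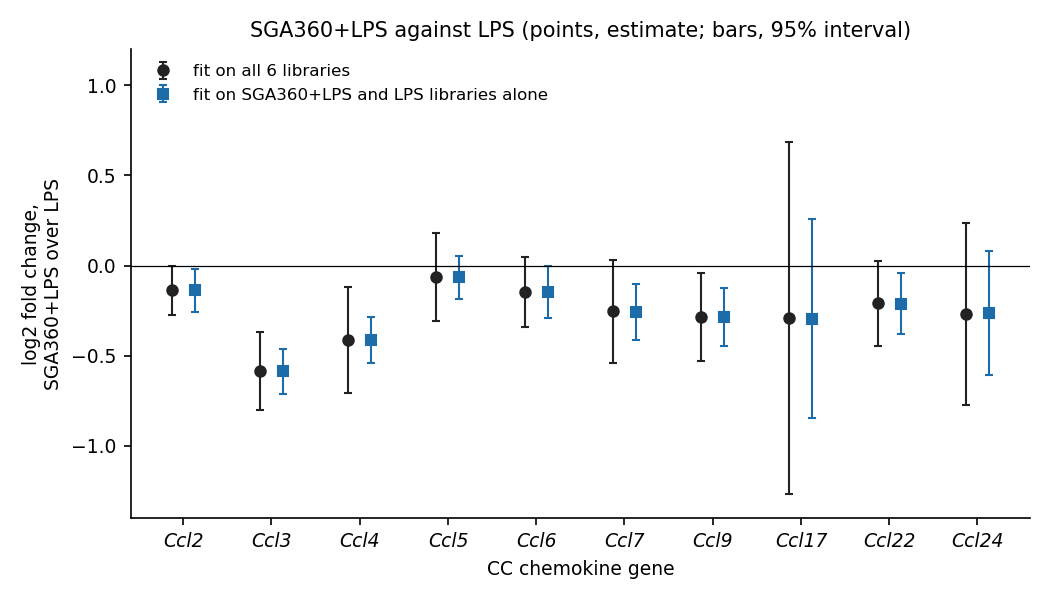
Log2 fold change (SGA360+LPS over LPS) of the 10 CC chemokine genes with 95% intervals, from the fit on all 6 libraries (black) and on the SGA360+LPS and LPS libraries alone (blue). All points lie below 0; Ccl3 is lowest, at −0.58 and −0.59, and Ccl5 nearest to 0, at −0.06 and −0.07.

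None of the 5 tested receptor genes and none of the 20 tested regulators was called between SGA360+LPS and LPS by edgeR, where 7 of all genes were. Klf4 stood at 0.38 (SE 0.15), while Nfkb1 stood at −0.10 (SE 0.09) and Ccr1 at −0.07 (SE 0.12). No fibroblast marker was called in this comparison (0 of 5 tested), and the part of fibroblasts in the Ccl2 and Ccl7 values was not tested.

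SGA360+LPS against vehicle shares its vehicle libraries with the LPS comparison and its treated libraries with the one above, so its values are given only beside theirs. Of the 10 genes 8 rose and Ccl6 fell by edgeR, where 17.9% and 15.2% of all genes did, with a median log2 fold change of 3.18 beside −0.01 over all genes. Both SGA360+LPS libraries were above both vehicle libraries in 9 of the 10, as in 32.9% of all genes, and below them for Ccl6, as in 32%. Ccl17 is among the 8 and the 9 and in the median, with the same limit from the count filter. Ccl5 was at 5.91 (SE 0.15), Ccl3 at 4.19 (SE 0.11), Ccl4 at 4.10 (SE 0.16), Ccl7 at 3.18 (SE 0.16), Ccl2 at 3.18 (SE 0.07), Ccl22 at 2.49 (SE 0.12) and Ccl9 at 2.41 (SE 0.12). Ccl3 was 18.2-fold above vehicle with SGA360+LPS (95% interval 15.3 to 21.8) and 27.3-fold above it with LPS (22.8 to 32.8). Ccl17 was at 4.06 (SE 0.63; 5.03 without vehicle replicate 1 and 3.47 without vehicle replicate 2), with a count ratio of 17.7 (exact counting interval 6.58 to 66.8), and Ccl6 at −0.66 (SE 0.09; adjusted p = 0.000257 by edgeR). Ccl24 missed the threshold at 0.52 (SE 0.23; adjusted p = 0.115 by edgeR); without vehicle replicate 2 it was called, at 0.77 (adjusted p = 0.00912), and over the 13 alternatives adjusted p reached 0.421.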

How the data were processed

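The table the authors deposited holds raw read counts, as whole numbers, for 34751 RefSeq transcript rows with symbol, position and exon length. TopHat2 2.0.13, HTSeq 0.5.4p3 and mm10 are named in the submitters' processing notes; strand setting and treatment of shared reads were not given in the sources used here. Rows were summed per symbol. Positions are given as the deposited start plus 1; strand and overlaps come from GENCODE annotation of the same build.

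In R 4.3.3, edgeR 4.0.16 removed low genes (filterByExpr, minimum count 10) and set TMM factors. All 6 libraries entered a quasi-likelihood fit (glmQLFit, then glmQLFTest) with a term per group, with Benjamini-Hochberg adjustment over 9389 genes and a threshold of 0.05. SE is the size of the log2 fold change over the root of its F statistic, and 95% intervals use the fit's degrees of freedom. CPM use TMM-scaled sizes, and CPM per kb divide by the deposited exon length. Alternatives used limma 3.58.1 (voom), DESeq2 1.42.0 and other edgeR fits. The scripts were tested on simulated counts. Replicate pairs differed beyond sampling noise (mean chi-square per gene 3.98 to 41.6), so none was counted as a duplicate.

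The members, lists and tests were chosen with earlier results of these data known. Named were the 10 members, other CC ligands with 10 or more counts in a library, tested receptors, called neighbours within 50 kb and the 4 largest called regulators; some of these are not reported here. Klf4, markers and uncalled neighbours were named after their values were seen.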

Additional observations from a re-analysis of the deposited data

How the results depend on the processing

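Over 13 alternatives, 390 values of the 10 genes were recomputed: 375 kept direction and side of the threshold, 4 lost a call (Ccl24), 11 gained one (Ccl3, Ccl4 and Ccl24) and 0 changed sign. In SGA360+LPS against LPS, where 7 genes and 0 of the 10 were called, the fit on these groups alone called 12 genes and 2 of the 10, no count filter 17 and 2, and DESeq2 and limma-voom 1 of the 10 each. With 1 library left out the counts were 0 to 16 genes and 0 to 2 of the 10. The 0 to 3 came without 1 LPS-treated library, which leaves an arm with 1 library assumed to vary like the others, and the 15 and 16 without vehicle replicate 1 or 2; the cause was not tested. In LPS against vehicle, 3413 genes became 2091 to 5494 with 1 library left out (5494 without vehicle replicate 2) and 9 or 10 of the 10 were called. In SGA360+LPS against vehicle, 3107 became 1831 to 5315 and 9 or 10 of the 10. The labels share only replicate numbers; deviations of same-numbered libraries correlated at 0.163 between SGA360+LPS and LPS, 0.0145 between SGA360+LPS and vehicle and −0.01 between LPS and vehicle. With the replicate number as a block, 5 genes and 0 of the 10 were called between SGA360+LPS and LPS (Ccl3 adjusted p = 0.052), 3434 and 10 with LPS against vehicle and 3136 and 9 with SGA360+LPS against vehicle. Depth limits Ccl17 (1 and 3 vehicle counts) and Ccl24.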
